A study of Mus musculus with 2 samples.

Results

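The stromal cells of the pup stomach are 78 of the 7808 cells of one pooled single-cell RNA-seq experiment on the mouse esophagus, gastroesophageal squamocolumnar junction (GE-SCJ) and stomach. They are all cells that carry the authors' class label Stromal together with the tag of the pup stomach. They made up 12.6% of the 618 cells with that tag (exact binomial 95% interval 10.1 to 15.5), beside 351 columnar epithelial cells, 113 smooth muscle cells and 27 cells of a second stromal label. At E19, 701 of 1403 stomach cells carried the label Stromal (exact interval 47.3% to 52.6%).

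All animals were wild-type C57BL/6 mice, and none received a treatment. The tissue came from 6 animals at embryonic day 15 (E15), 2 at embryonic day 19 (E19), 2 pups at 2 days after birth and 3 adults at 8 weeks. Tissue pieces were dissociated with collagenase II at 37°C, the cells of all animals of a stage were pooled, and each combination of region and stage received its own oligonucleotide tag before one library was made. The pup stomach cells were compared with the 701 stromal cells of the E19 stomach, for the change over birth, and with the 151 stromal cells of the pup esophagus, for the difference between organs. The 739 stromal cells of the E19 esophagus and the 82 of the pup GE-SCJ served as further references. A group is therefore a single pool of 2 mice with no replicate, so no test between groups was run, and differences between individual mice cannot be told apart from differences between stages. As far as the labels tell, the organs of a stage were cut from the same animals, so organ comparisons within a stage share their animals.

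Stomach fibroblasts derive from the splanchnic mesoderm around the foregut. They lay down the collagens and elastic fibers of the lamina propria and submucosa, receive Hedgehog ligands from the epithelium through the receptor PTCH1, and return BMP, WNT and FGF signals to it. The homeobox factor BARX1 is the best known transcription factor of the stomach mesenchyme, where it restrains WNT signaling while the stomach epithelium is specified. Around birth, fibroblasts of many organs leave the cell cycle and shift from making a growing tissue to maintaining it, while circulating glucocorticoids are high.

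Expression is given as CPM: the unique molecular identifiers (UMIs, each marking 1 captured mRNA molecule) of a gene were added up across a group's cells and given as the count among 1000000 UMIs of that group. The 78 cells held 446519 UMIs, with a median of 5072.5 per cell (2764 to 21111), against 9025 in the E19 stomach, 3859 in the pup esophagus and 9172 in the E19 esophagus. One UMI in the pup stomach group was worth 2.24 CPM, and 0 UMIs allow a level of up to 6.72 CPM, the worth of 3 UMIs. Intervals are exact 95% intervals for counting error only. A log2 ratio compares 2 sums with 1 UMI added to each, and a gene is called higher or lower, or said to have risen or fallen, where the ratio reached 2-fold (a log2 ratio of 1) and both groups together held at least 100 UMIs.

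Of the 4 markers of the label, 3 were present in most cells. Col1a1, which encodes a chain of type I collagen, had a UMI in 77 of 78 cells, the proteoglycan gene Dcn in 58, the PDGF receptor gene Pdgfra in 58 and the keratan sulfate proteoglycan gene Lum in 38. At least 2 of these 4 genes were detected in 70 cells, and all 4 in 25. Immune cells of the pool had a UMI of Col1a1 in 59.3% (28.1% after thinning to 2500 UMIs), and of Dcn in 24.3% (12.4%), against 98.7% (96.2%) and 74.4% (69.2%) of the pup stomach cells, and the part of free RNA in these shares was not tested. The level of Col1a1 was 5686 CPM in the pup stomach, 5148 at E19, 6929.5 in the pup esophagus and 11952 in the E19 esophagus, against 355 in the 354 immune cells of the pool. Pdgfra stood at 519.6 CPM against 209 at E19 and 876 in the pup esophagus. Lum, in contrast, stood at 258 CPM, below its 677 at E19 and 815 in the pup esophagus. Over the 7 fibroblast markers the summed level was 23430 CPM in the pup stomach, against 10720 in smooth muscle cells of the same stomach. As a whole the group carries its label, with Lum the weakest of the 4 label markers.

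**Figure D1:**
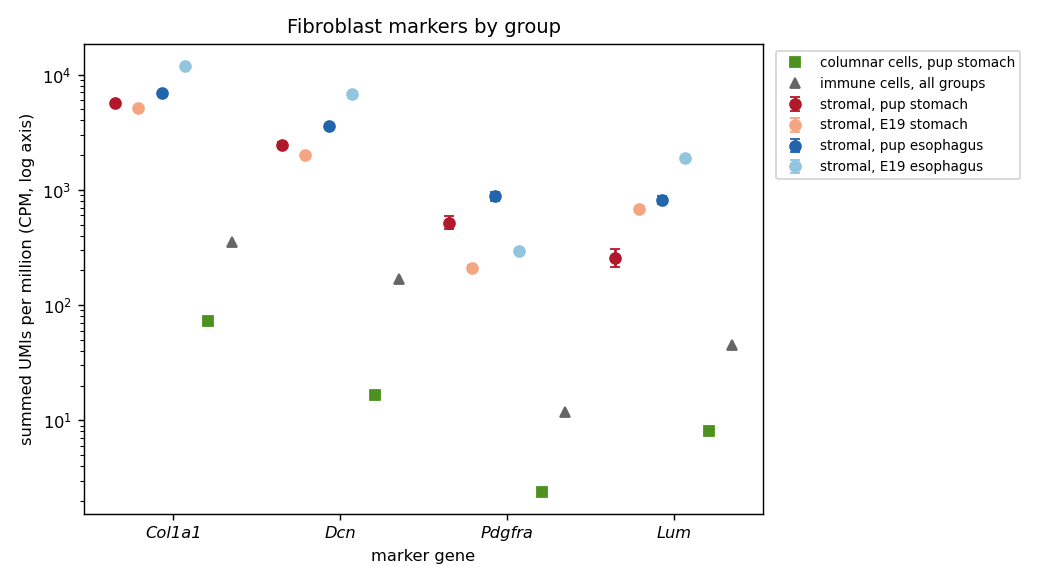
CPM (log axis) of 4 fibroblast markers in the stromal cells of 4 groups, with exact 95% counting intervals, and in columnar cells of the pup stomach and all immune cells. Each stromal value lies above those of the columnar and immune cells, and among the stromal groups Lum is lowest in the pup stomach at 258 CPM.

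Markers of other cell types were measured in the same cells. The 9 columnar epithelial markers summed to 4163 CPM, led by the mucosal trefoil factor gene Tff1 at 1514 CPM, which was at 8826 CPM in the columnar cells of the same stomach and at 455 CPM in E19 stomach stroma. Columnar markers were not particular to these cells, as they summed to 1789 CPM in E19 stomach stroma, 3695 in pup esophagus stroma, 2983 in smooth muscle cells of the pup stomach and 2478 in immune cells, against 53275 in columnar cells. Smooth muscle markers summed to 1277 CPM, pericyte markers to 681 (Rgs5 alone 352) and the 3 markers of interstitial cells of Cajal, the pacemaker cells of the gut wall, to 361 (Kit 170.2). Of the 6 endothelial markers, Pecam1, Cdh5, Tie1 and Cldn5 were at 0 UMIs, and the immune and neural markers summed to 20.2 and 11.2 CPM. Of the 6 mesothelial markers Wt1, Msln, Lrrn4 and Upk1b were at 0, so the sum of 89.6 CPM came almost wholly from the keratin gene Krt19. Hemoglobin and other red cell genes summed to 426 CPM here and 1527 in the pup esophagus.

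A few cells carried much of the signal of some epithelial and contractile genes. In 5 of the 78 cells, between 11.6% and 19.5% of the UMIs were mitochondrial. They held 8.07% of all UMIs of the group, but 60.2% of its Tff1, 53.1% of its Krt8 (52 of 98 UMIs, a keratin of simple epithelia), 40.0% of its Epcam (8 of 20 UMIs) and only 1.26% of its Col1a1. In 3 of the 5, Col1a1 had at most 1 UMI, and these 3 held all of the 5 cells' epithelial UMIs but 1 of Krt8 and 6 of Tff1. One of the 3 held 128 of the group's 169 UMIs of the mucin gene Muc5b and 118 of 358 of the nuclear noncoding RNA Neat1, and another held 117 of 185 UMIs of the acid pump gene Atp4a. A cell elsewhere in the group held 92 of 95 UMIs of the endocrine granule gene Chga. One cell of 21111 UMIs held 30 of 34 UMIs of the proliferation gene Mki67, 63 of 70 of the histone gene Hist1h2ap and 93 of 231 of the smooth muscle actin gene Acta2. Without the 5 cells of high mitochondrial share the columnar sum was 2901 CPM, Tff1 was at 655 CPM against 1514 with them, Krt8 at 112 against 219 and Atp4a at 156 against 414.

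The cells were also placed among all stromal cells by their 15 nearest neighbours in expression space. On average 39.8% of a cell's neighbours were other stromal cells of the pup stomach, 25.3% were from the pup GE-SCJ, 9.57% from the pup esophagus and 9.91% from the E19 stomach, although the pup stomach supplies only 2.27% of all stromal cells. For 19 of the 78 cells (24.4%) most neighbours were prenatal, against 11 of 151 in the pup esophagus and 10 of 82 in the pup GE-SCJ. These 19 cells were picked by their expression. Values over birth without them therefore tend to lie farther from E19 and are no independent check. By the authors' clusters 60 cells were in cluster 9, which holds 149 of the 151 pup esophagus cells, and 9 were in each of clusters 0 and 3, which hold 528 and 169 of the 701 stromal cells of the E19 stomach. The pools also differed in sex-linked genes. Xist, the RNA of the inactive X chromosome, was at 1565 CPM against 719.9 at E19, and the Y-linked Ddx3y at 4.48 against 51.1. The pup esophagus, at 1639 and 1.59 CPM, was close to the pup stomach in both. By these genes the sex make-up of the pools differed between the stages, so sex and stage cannot be told apart in the comparisons over birth.

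The transcripts that took the largest share of UMIs, outside mitochondrial and ribosomal protein genes, were the noncoding Gm42418 and Malat1, the collagen genes Col3a1 (9462 CPM), Col1a1 and Col1a2 (4320.1 CPM), the collagen-binding Sparc (4367 CPM), the housekeeping genes Tpt1, Tmsb4x and Eef1a1, and Mgp. Mgp encodes matrix Gla protein, an inhibitor of calcification. Its level was 445 CPM on E15, 677 on E19 and 3742 in the pup, so it rose over birth by a log2 ratio of 2.47 (2.39 to 2.55), and it stood at 7352 CPM in the pup esophagus.

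Between E19 and the pup, 8179 genes had enough UMIs to compare in stomach stroma. Of these 553 were at least 2-fold higher in the pup (6.76% of the genes tested) and 721 at least 2-fold lower (8.82%), around a median log2 ratio of -0.02. The interval lay off 0 for all 553 higher but only 549 of the 721 lower genes. The bound nearest 0 was itself past 2-fold for 208 and 102 genes. Of the 15 genes with the most secure fall, 6 belong to the mitosis list.

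Fmo2 (chr1:162874317-162898726, minus strand, GRCm38), a flavin monooxygenase, stood at 15.2 CPM on E15 and 45.4 on E19, and at 927 (840.0 to 1021) in the pup, a log2 ratio over birth of 4.35 (4.13 to 4.57). It had a UMI in 65.4% of the pup stomach cells and 14.1% of the E19 cells, or 59.0% and 7.39% after thinning each cell to 2500 UMIs. The share in immune cells, which should lack it, was 5.93% (2.94% thinned) at a median of 8266.5 UMIs per cell. After thinning, the E19 share was thus above that of immune cells and the pup share above both. Clec3b (chr9:123150946-123157432, plus strand), which encodes the plasminogen-binding protein tetranectin, was at 31.0 CPM at E19 and 446 in the pup (3.85, 3.56 to 4.13). Scara5, a ferritin receptor, was at 11.8 and 177 CPM (3.91), and Adh1, an alcohol and retinol dehydrogenase, at 7.41 and 116 CPM (3.97). All 4 of these genes had an interval wholly above 2-fold. Dpep1, a membrane dipeptidase, moved from 18.5 to 246 CPM, and the lipid transporter gene Abca8a from 12.1 to 139 CPM. The neutrophil chemokine gene Cxcl1 was at 10.1 CPM at E19 and 197 in the pup, in 14 of the 78 cells. Tnfaip6, which encodes a hyaluronan-binding protein induced by inflammatory signals, was at 14.5 and 170.2 CPM, in 16 cells. Muc5b and Neat1 ranked among the 15 leading genes as well, but Muc5b was at a log2 ratio of 3.41 with all cells and 0.58 without the 5 cells of high mitochondrial share, and Neat1 at 3.83 and 2.37.

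Insulin-like growth factor (IGF) handling made up 3 of the leading genes. Igfbp3 and Igfbp6 encode proteins that bind IGFs in the extracellular space, and Pappa a protease that cleaves such binding proteins. Igfbp3 rose from 46.9 to 531 CPM (3.50, 3.25 to 3.75), Igfbp6 from 10.1 to 166 CPM (4.03) and Pappa from 24.4 to 273 CPM (3.49, or 2.86 without the 19 cells of mostly prenatal neighbours). Of the 13 tested genes of the IGF list, these 3 rose and none fell, beside 6.76% and 8.82% of all genes. Igfbp5, also a binding protein, was at 577 CPM at E19 and 1070.5 in the pup, under 2-fold, and the ligand gene Igf2 at 427 and 392.

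Of the 25 tested genes of mitosis, 23 fell (21 with an interval off 0) and none rose, beside 8.82% and 6.76% of all genes. Their median log2 ratio was -2.73 against -0.02 over all genes. Ube2c, which encodes the ubiquitin-conjugating enzyme of the anaphase-promoting complex, fell from 186 CPM to 13.4 (-3.57, -4.89 to -2.52), and 5 of the 78 cells held its 6 UMIs. Cenpf, a kinetochore gene, fell from 142 to 8.96 CPM, and Birc5, which encodes survivin, from 131 to 11.2 CPM. Stmn1, which encodes a microtubule-destabilizing protein, fell from 631 to 107 CPM, and 34 of its 48 pup UMIs lay in 1 cell. Of the 22 genes of DNA replication 16 fell (15 with an interval off 0) and none rose (median -1.09). Without the 19 cells of mostly prenatal neighbours all 25 mitosis genes and 19 of the 22 replication genes were lower. Those cells were picked by likeness to prenatal cells, so a wider difference without them follows in part from that choice. Mki67 itself was at 129 and 76.1 CPM, under 2-fold with all cells, and at a log2 ratio of -3.37 without those 19, which include the cell that holds 30 of its 34 UMIs. Its share of cells was 6.41% in the pup and 23.1% at E19, or 3.85% and 14.3% after thinning. By the authors' cell cycle phase calls, 74 of the 78 cells were in G1, 4 in S and none in G2M, against 429, 171 and 101 of the 701 at E19.

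Several genes outside the cell cycle were among the 15 with the most secure fall. Snai2, a transcription factor of mesenchymal migration, fell from 348 to 60.5 CPM (-2.47, -3.07 to -1.94). Sema3a, which encodes a repellent for growing axons, fell from 136 to 15.7 CPM (-2.93), and the collagen receptor gene Itga2 from 50.7 CPM to 0 UMIs, at least 7.54-fold lower. The aryl hydrocarbon receptor gene Ahr was at 86.4 CPM at E19 and held 1 UMI in the pup (-4.27, -7.32 to -2.41), and Msmo1, an enzyme of cholesterol synthesis, also held 1 UMI against 61.9 CPM (-3.79, -6.84 to -1.93). Of the 13 tested signals of innervation and endothelin 3 rose and 7 fell, of which 6 had an interval off 0 (median -1.31). Over all genes 6.76% rose and 8.82% fell. The endothelin receptor genes Ednra and Ednrb fell, the latter from 309 to 80.6 CPM, and the guidance genes Ntn1 and Slit3 rose, the latter from 36.6 to 215 CPM. The target-derived neurotrophin gene Ntf3 fell from 24.5 CPM to 2 UMIs (-1.88, -4.17 to -0.30).

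**Figure D2:**
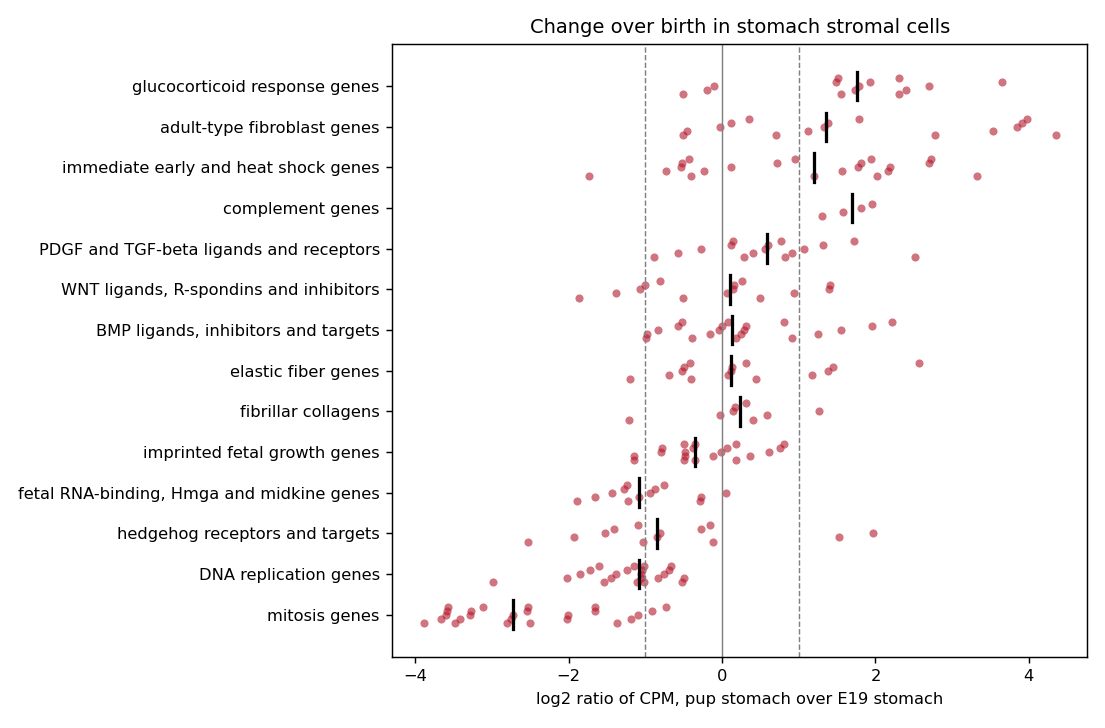
Each point is the log2 ratio of CPM in pup over E19 stomach stromal cells for 1 tested gene of a list, the black bar is the list's median, and the dashed lines mark 2-fold. Mitosis genes lie almost wholly to the left (median -2.73) and glucocorticoid response genes mostly to the right (median 1.76).

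Genes known to be induced by glucocorticoids rose for the most part. Of 14 tested, 11 were higher in the pup and none lower, beside 6.76% and 8.82% of all genes. Their median log2 ratio was 1.76. Klf9, a transcription factor that glucocorticoids induce directly, stood at 57.4 CPM on E15 and 98.5 on E19, and at 638 in the pup (2.70, 2.49 to 2.90). It had a UMI in 68 of the 78 cells, and the part of free RNA in that count was not tested. The phosphatase gene Dusp1 was at 156 and 822 CPM (2.40), the EGF receptor inhibitor gene Errfi1 at 30.9 and 385 CPM (3.64), and Tsc22d3, which encodes the leucine zipper protein GILZ, at 71.1 and 197 CPM (1.48). All 4 rose, and all 4 were likewise higher in the pup than at E19 in the esophagus. The glucocorticoid receptor gene Nr3c1, at 137 and 125 CPM, was among the 3 members that stayed under 2-fold. The same count, 11 of 14, was found without the 19 cells of mostly prenatal neighbours and without the cells of over 10% mitochondrial UMIs. The list was drawn up with earlier results of these data known. No hormone was measured, and the parts of glucocorticoids and of tissue dissociation in these differences were not tested.

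The metallothionein genes Mt1 and Mt2, which encode small zinc- and copper-binding proteins and lie side by side on chromosome 8, belong to this list and moved together. Mt1 was at 233 CPM at E19 and 1149 in the pup (2.30, 2.16 to 2.45), with a UMI in 72 cells. Mt2 was at 93.2 and 307 CPM (1.73, 1.45 to 2.00). In the columnar cells of the pup stomach they were at 7339 and 2152 CPM and Mt1 was at 1319 CPM in immune cells, and the part of free RNA from such cells in the stromal levels was not tested. Their promoters are shown because both genes are textbook targets of the metal response element. The 250 bases before each annotated start are given 5′ to 3′ on the plus strand from RefSeq on GRCm38.p6, with matches to the core TGCACNC or TGCGCNC (either strand) in capitals, at chr8:94172368-94172617 for Mt2 and chr8:94178839-94179088 for Mt1.
Mt2: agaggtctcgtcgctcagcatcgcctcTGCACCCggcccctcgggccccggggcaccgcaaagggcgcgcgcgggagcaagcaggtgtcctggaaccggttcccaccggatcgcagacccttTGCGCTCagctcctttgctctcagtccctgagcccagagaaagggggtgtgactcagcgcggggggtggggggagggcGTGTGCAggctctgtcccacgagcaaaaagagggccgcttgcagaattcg
Mt1: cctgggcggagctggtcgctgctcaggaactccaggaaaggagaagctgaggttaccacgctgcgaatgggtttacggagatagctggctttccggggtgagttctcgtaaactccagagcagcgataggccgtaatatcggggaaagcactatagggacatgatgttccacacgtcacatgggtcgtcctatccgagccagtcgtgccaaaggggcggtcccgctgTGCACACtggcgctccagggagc
The Mt2 window holds 3 matches and the Mt1 window 1. Bases after the annotated starts were not searched, so these counts may not cover the whole promoters. Of 32817 promoter windows of this length, 21.4% hold at least 1 match and 1.26% at least 3, and no binding was measured here.

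Immediate early and heat shock genes also rose in number. Of 21 tested, 11 were higher in the pup and 1 lower, beside 6.76% and 8.82% of all genes. Their median was 1.20. Fos and Junb, which encode subunits of the AP-1 transcription factor, were at 1218 and 3601 CPM (1.56) and at 506 and 1774 CPM (1.81). Zfp36, which encodes an mRNA-destabilizing zinc finger protein, was at 277 and 1805 CPM (2.70, 2.58 to 2.82). The antiproliferative gene Btg2 was at 239 and 1068 CPM. The chaperone gene Hsph1 was the member that fell, from 74.7 to 20.2 CPM. These genes are also known to respond to tissue dissociation. Every tissue was dissociated in the same way, and the part of dissociation in the difference was not tested. The C/EBP factors, which act in the acute phase response and fat cell formation, rose as well, Cebpd from 181 to 1516 CPM (3.07, 2.93 to 3.21) and Cebpb from 103 to 414 CPM.

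Matrix genes are given list by list, beside 6.76% of all genes higher and 8.82% lower. Of the 8 fibrillar collagen genes tested 1 rose and 1 fell, near those shares. Col1a1, Col1a2 and Col3a1 had log2 ratios of 0.14, -0.03 and 0.59. Of the 15 elastic fiber genes 4 rose and 1 fell, and the latter count is near the share of all genes. Eln, which encodes tropoelastin, stood at 210.1 CPM on E15 and 429 on E19, and at 2544 in the pup (2.57, 2.47 to 2.67). It was detected in 73 of the 78 cells, and in 16.9% of immune cells. The microfibril genes Fbn1 and Mfap5 rose from 516 to 1165 CPM and from 465 to 1207 CPM, and Efemp1 rose as well. Efemp2, which encodes fibulin-4, an assembly factor for elastic fibers, fell from 180.0 to 76.1 CPM. Among small leucine-rich proteoglycans, Aspn rose from 668 to 1839 CPM (1.46) while Lum fell (-1.38, -1.66 to -1.12). Of 18 network and other collagen genes 2 rose, near the share of all genes, and 4 fell (3 with an interval off 0). Col4a2, which encodes a basement membrane collagen, rose, as did Col8a1, which encodes a short-chain collagen, the latter from 90.1 to 611 CPM (2.76).

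Of the 18 genes of provisional matrix and hyaluronan 8 rose and 4 fell. This count and those of the following lists stand beside 6.76% of all genes higher and 8.82% lower. Thbs1, which encodes thrombospondin 1, an activator of latent TGF-beta, was at 493 CPM at E19 and 2105 in the pup (2.10, 1.99 to 2.20). Ccn1, a matricellular gene, rose from 562 to 1272 CPM, Tnxb, which encodes tenascin X, from 68.4 to 408 CPM, and Postn, which encodes periostin, from 189.7 to 719 CPM, with 94 of its 321 UMIs in 1 cell. The fibronectin gene Fn1 fell from 1002 to 486 CPM (-1.04). Of the 17 matrix proteases and their inhibitors 4 rose and none fell, among them the aggrecanase gene Adamts5, from 28.1 to 267 CPM (3.25, 2.91 to 3.59). All 4 tested complement genes rose, Serping1 (the C1 inhibitor) from 183 to 448 CPM and the C1 protease gene C1s1 from 33.9 to 129.9 CPM.

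Of 13 tested genes of Hedgehog reception and response 6 fell (5 with an interval off 0) and 2 rose, beside 8.82% and 6.76% of all genes. Their median was -0.85. Ptch1, at once the receptor and a target of the pathway, stood at 455 CPM on E15 and 686 on E19, and at 177 (140.1 to 220.5) in the pup (-1.94, -2.27 to -1.62, or -2.46 without the 19 cells of mostly prenatal neighbours). It was detected in 83.9% of E19 cells and 35.9% of pup cells, or 62.6% and 26.9% after thinning to 2500 UMIs, against 22.9% and 9.15% in immune cells. Gli1, the transcriptional effector that is itself a target, fell from 77.7 to 11.2 CPM, and Hhip, a decoy receptor and target, from 103 to 33.6 CPM. Foxf2, a forkhead target gene of the gut mesenchyme, fell from 120.1 to 53.7 CPM, and the related Foxf1 was at 299 and 168 CPM. The members that rose, Gas1 (143 to 409.8 CPM) and Boc (28.4 to 109.7 CPM), encode co-receptors that bind the ligand. In the esophagus Ptch1 moved likewise, from 279 to 90.8 CPM, but Gli1 was at 31.5 and 31.9.

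Of 13 fetal RNA-binding, Hmga and midkine genes 7 fell and none rose (median -1.08), beside 8.82% and 6.76% of all genes. The heparin-binding growth factor gene Mdk fell from 1059.9 to 282 CPM (-1.90), and the factor genes Sox4 and Sox11 from 334 to 141 and from 102 to 35.8 CPM. Of 20 imprinted growth genes 2 fell, Mest and Peg10, and none rose, a share near the 8.82% of all genes. H19, the imprinted noncoding RNA of the Igf2 locus, was at 1089 and 1843 CPM, and Dlk1, a Notch-like regulator, at 1192 and 1344. These imprinted transcripts were thus still abundant 2 days after birth.

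Ligands and receptors moved in both directions, and their counts stand beside 6.76% of all genes higher and 8.82% lower. Of 20 BMP pathway genes 4 rose and none fell. Bmp2 rose from 57.9 to 168 CPM and the BMP antagonist gene Grem1 from 21.0 to 96.3 CPM, whereas Bmp4 was at 388 and 193 CPM, just under 2-fold lower (-0.99). Of 14 WNT pathway genes 2 rose and 3 fell, of which 1 had an interval off 0, beside 6.76% and 8.82% of all genes. Rspo3, which encodes a potentiator of WNT signaling, rose from 33.0 to 85.1 CPM, the secreted antagonist gene Sfrp1 rose from 554 to 1467 CPM, and Sfrp2 fell from 97.7 to 24.6 CPM. Of 12 FGF pathway genes 5 rose and 1 fell. The receptor genes went opposite ways, Fgfr1 from 125 to 251 CPM and Fgfr2 from 85.9 to 17.9 CPM, and the feedback inhibitor gene Spry1 rose. Of 16 PDGF and TGF-beta genes 4 rose and none fell, with the co-receptor gene Tgfbr3 at 95.1 and 542 CPM (2.51), Tgfb2 at 51.7 and 168, and Pdgfra as above.

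Lipid genes rose in part, 5 of 15, and none fell. Lpl, which encodes lipoprotein lipase, rose from 36.6 to 159 CPM. Of the other lists, glycolysis and hypoxia genes had 2 of 19 higher and 2 lower, collagen processing enzymes 2 of 20 and 1, interferon and antigen presentation genes 3 of 10 and 2, chemokines and cytokines 1 of 7 and 2, adipocyte genes 3 of 7 and 2, and retinoic acid genes 1 of 13 and 1. Subepithelial fibroblast genes had 3 of 15 higher and 4 lower. Those shares are read against the 6.76% and 8.82% of all genes. Columnar markers were higher in 5 of 9 with all cells and in 1 of 9 without the cells of over 10% mitochondrial UMIs. Of the 3 interstitial cell of Cajal markers 2 were higher with all cells, and all 3 lower without the 19 cells of mostly prenatal neighbours, with Kit at 1.28 and -1.34. Smooth muscle markers were lower in 3 of 8 and higher in none.

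The change over birth was also measured in the esophagus, whose groups share no cell with those of the stomach but come from the same animals as far as the labels tell, so a difference between the animals of the stages would enter both organs. Xist, for one, was at 832 CPM in the E19 and 1639 in the pup esophagus. There 668 of 8093 tested genes were higher in the pup (8.25%) and 697 lower (8.61%). Of the 515 genes higher in the stomach and tested in both organs, 277 (53.8%) were also higher in the esophagus, which is 47.9% of the 578 such genes there, against 7.54% of all 7663 genes tested in both. Of the 596 lower genes 255 (42.8%) were also lower in the esophagus, 41.3% of 618, against 8.06%. Only 5 and 7 genes passed 2-fold the other way. Klf9 (2.70 in the stomach, 2.59 in the esophagus), Mt1 (2.30 and 2.61), Igfbp3 (3.50 and 3.67), Eln (2.57 and 2.10) and Stmn1 (-2.52 and -2.12) moved the same way past 2-fold in both organs.

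**Figure D3:**
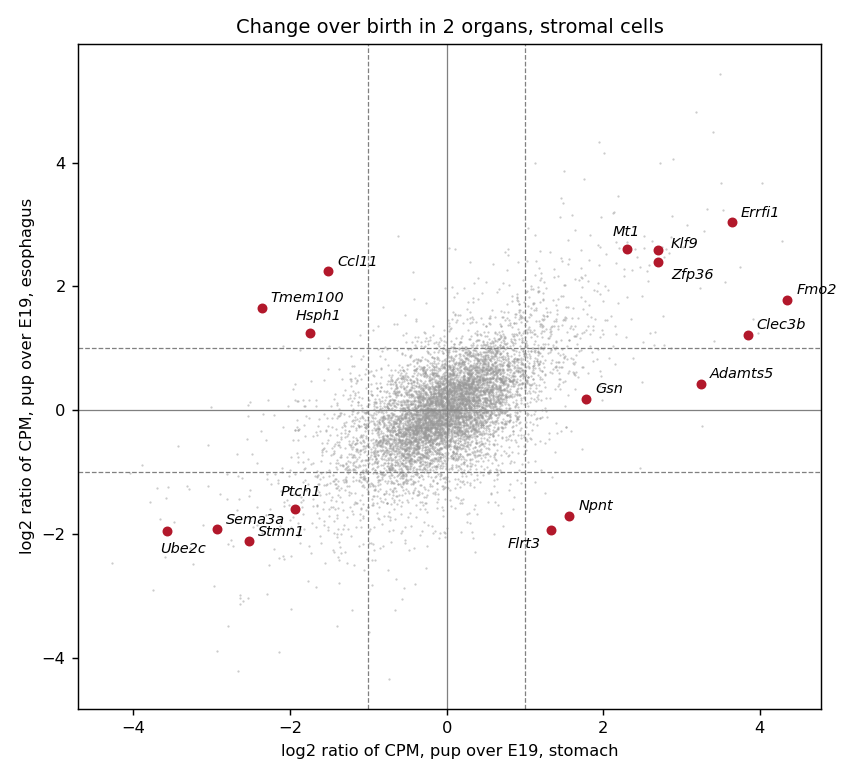
Each grey point is 1 of 7663 genes, placed by its log2 ratio of CPM in pup over E19 in the stomach (x axis) and in the esophagus (y axis), with dashed lines at 2-fold. Klf9, Mt1 and Errfi1 lie high in both, Fmo2, Clec3b and Adamts5 rose more in the stomach, and Ccl11 and Tmem100 lie in opposite directions.

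Other genes rose more in the stomach than in the esophagus. For Fmo2 the difference between the 2 log2 ratios was 2.56 (approximate 95% counting interval 2.33 to 2.80), for Clec3b 2.63 (2.31 to 2.94), for Adh1 2.73 (2.14 to 3.33) and for Adamts5 2.82 (2.42 to 3.22). Hpgd, which encodes the enzyme that inactivates prostaglandins, rose in the stomach from 68.7 to 378 CPM while it was at 407 and 212 CPM in the esophagus (3.40, 3.04 to 3.76). Plcb4, a phospholipase C gene, was at 14.4 and 137 CPM in the stomach and 88.8 and 73.3 in the esophagus. Hspa1a and Ier5 lay the other way. Hspa1a, an inducible HSP70 gene, rose from 89.4 to 343 CPM in the stomach and from 66.5 to 1343 in the esophagus, and Ier5, an immediate early gene, was at 70.3 and 69.4 CPM in the stomach against 43.7 and 269.

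Between the stomach and the esophagus of the pup the smaller groups left 1830 genes to compare. Of these 38 were at least 2-fold higher in the stomach (2.08%) and 61 in the esophagus (3.33%), and 12 and 20 passed by their interval bound. The stomach count was 25 of 1467 tested genes without cells whose neighbours lay mostly on the other side of birth. It was 16 of 1126 without cells that held 2 or more UMIs of other classes' markers. Barx1 (chr13:48662998-48666507, plus strand) had the most secure difference. It stood at 576 CPM on E15 and 393 on E19, and at 269 (223 to 321) in the pup stomach, 208 in the pup GE-SCJ and 14.3 in the pup esophagus, a log2 ratio between organs of 4.09 (3.16 to 5.19). It had a UMI in 71.8% of pup stomach cells and 5.96% of pup esophagus cells, or 52.6% and 2.40% after thinning, and in 9.60% (2.94% thinned) of immune cells, so the esophageal share was at the background. Over birth Barx1 stayed under 2-fold (-0.54).

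Further genes were higher in the pup stomach. Rgs5, a regulator of G protein signaling known from pericytes, was at 352 CPM, 356 in the GE-SCJ and 46.2 in the esophagus (2.89, 2.32 to 3.50). It had a UMI in 39 of the 78 cells, and in 7.91% of immune cells. Tgfbi, which encodes a matrix protein induced by TGF-beta, was at 314 CPM in the stomach (1.99), Igfbp5 at 1070.5 and 333, Bmp4 at 193 and 65.3, and Bmp2 at 168 and 57.3. Of 8 tested genes of the BMP list, Bmp2 and Bmp4 were higher in the stomach and none was lower, beside 2.08% and 3.33% of all genes. The median was -0.08. The proteoglycan gene Ogn was at 412 and 148 CPM, and H19 at 1843 and 823 (1.16, or 0.89 without the 19 cells of mostly prenatal neighbours). Adamdec1, a protease gene of subepithelial fibroblasts, was at 175 and 36.6 CPM (2.21), but its 78 UMIs came from 9 cells and the ratio was -0.15 without those 19 cells. Muc5b was at 2.17 with all cells and -0.66 without the cells of high mitochondrial share, so neither gene kept its direction without these cells. The contractile genes Acta2 (1.03 and 0.04) and Myl9 (1.51 and 0.19, with and without the 19 cells) kept their sign but fell under 2-fold.

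Genes lower in the pup stomach than in the pup esophagus were led by Fgl2, which encodes a fibrinogen-like immune regulator, with 2 UMIs in the stomach and 258 CPM in the esophagus (-5.27, -7.56 to -3.70). At E19 it was at 11.2 CPM in the stomach and 11.7 in the esophagus. In the esophagus it had a UMI in 16.6% of cells (13.6% after thinning), and immune cells, which are known to express the gene, were at 54.7 CPM with a UMI in 29.4%. Fbln2, an elastic fiber-associated fibulin gene, was at 24.6 and 204 CPM, Angptl1 at 29.1 and 225, and the growth factor gene Ptn, a relative of midkine, at 222 and 981 (-2.13, -2.45 to -1.83). Zfp703, a transcriptional repressor gene, was at 85.1 and 320.1 CPM, and Nrp1, a co-receptor of semaphorins and VEGF, at 148 and 495. The heat shock genes Hspa1a and Hspa1b were lower too (-1.96 and -1.89), as were 3 hemoglobin genes. Of the 15 leading genes in each direction, the GE-SCJ level lay between the 2 organs for 8 of the stomach-high and 12 of the esophagus-high genes. These genes were picked for their difference between the organs, which favours a level in between. The share over all tested genes was not taken, so no conclusion is drawn from these counts.

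The difference between organs at E19, in cells not used for the pup difference, had 411 genes higher in the stomach (4.11% of 10009 tested) and 305 in the esophagus (3.05%), around a median of 0.14. With median-of-ratios scaling these counts were 324 and 376. Of the 38 genes higher in the pup stomach 12 (31.6%) were also higher in the stomach at E19, 26.7% of the 45 such genes among those tested at both stages, against 2.47% of all 1824. Of 58 genes higher in the pup esophagus 28 (48.3%) were also higher there at E19, 34.6% of 81, against 4.44%. Barx1 (4.09 in the pup, 3.29 at E19), Igfbp5 (1.68 and 1.52), Bmp4 (1.54 and 1.69), Zfp703 (-1.88 and -1.76) and Lum (-1.65 and -1.49) differed past 2-fold in the same direction at both stages.

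Fibroblast genes of adult type, which mark adventitial fibroblasts of adult organs, were compared in both organs and stages. The birth and organ comparisons share the pup stomach cells, so each comparison's own values are given. At E19 3 of 17 tested members were higher in the stomach and 11 in the esophagus, beside 4.11% and 3.05% of all genes. Over birth in the stomach 10 of 16 tested members rose and none fell (median 1.35), beside 6.76% and 8.82% of all genes. In the esophagus 7 of 16 rose and 2 fell (median 0.88), beside 8.25% and 8.61% of all genes there. Some members are among the leading genes over birth named above, and this list too was made with earlier results of these data known. Between organs in the pup 1 of 13 was higher in the stomach and 6 in the esophagus (median -0.84), beside 2.08% and 3.33% of all genes. Fmo2 was at 45.4 CPM in the stomach and 585 in the esophagus at E19 (-3.68), and at 927 and 2016 in the pup (-1.12). Clec3b went from -3.46 to -0.84, Scara5 from -3.53 to -1.09, Adh1 from -4.35 to -1.62, and the actin-severing gelsolin gene Gsn from -2.37 to -0.77. For Cd34, a surface sialomucin of adventitial fibroblasts, the stomach was lower at E19 (127 and 564 CPM) and close to the esophagus in the pup (275 and 252). Abca8a was lower in the stomach by more than 2-fold in the pup (139 and 462 CPM) as at E19 (12.1 and 48.9). The glutathione peroxidase gene Gpx3 was the member higher in the stomach, at 193 and 76.4 CPM. In the pup GE-SCJ, Fmo2 and Clec3b were at 1735 and 759.5 CPM, nearer to the esophagus.

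**Figure D4:**
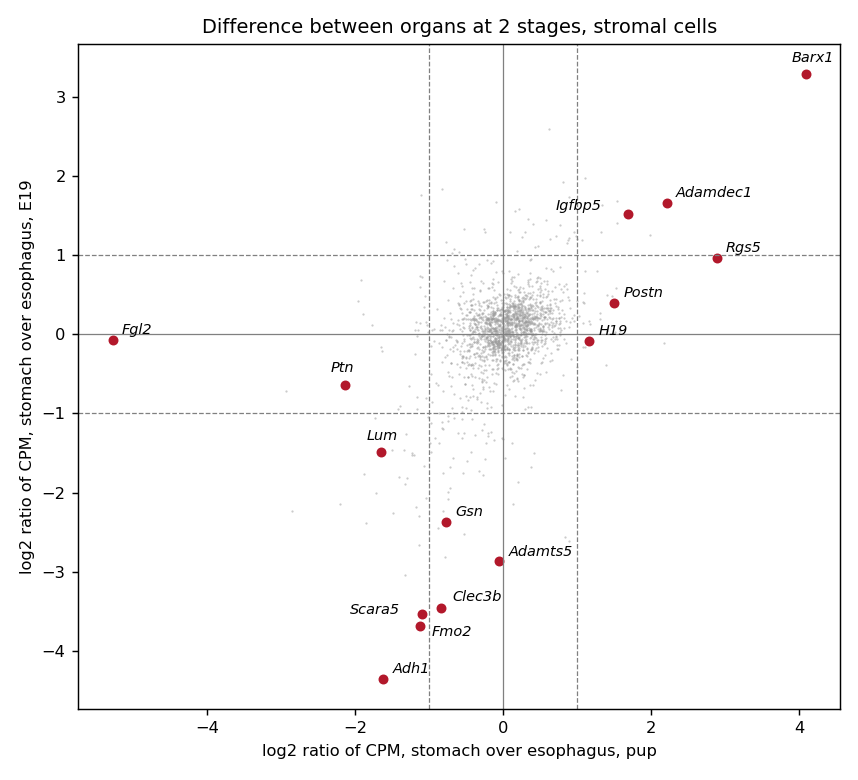
Each grey point is 1 of 1824 genes, placed by its log2 ratio of CPM in stomach over esophagus in the pup (x axis) and at E19 (y axis), with dashed lines at 2-fold. Barx1 is far to the stomach side at both stages, Fgl2 to the esophagus side in the pup alone, and Fmo2, Clec3b, Scara5 and Adh1 lie lower on the E19 axis than on the pup axis.

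Of the stomach mesenchyme transcription factors 6 had enough UMIs for the organ comparison in the pup, and Barx1 alone was past 2-fold among them (median 0.08). Tcf21 (0.11), Nr2f2 (-0.53), Meis1 (0.46) and Meis2 (0.05) were under it. None of the 3 tested factors known from the esophageal and respiratory mesenchyme, Osr1 (-0.86), Foxp1 (-0.30) and Foxp2 (0.08), passed 2-fold. Over all genes 2.08% were higher in the stomach and 3.33% in the esophagus. The levels of 5 factors with under 100 UMIs, picked after their values were seen, are given as a description. Isl1, a LIM homeobox gene, was at 107 CPM in the pup stomach and 15.9 in the pup esophagus, and at 144 and 5.59 at E19. Six2, also a homeobox gene, was at 69.4 and 6.37 CPM in the pup and 62.2 and 10.9 at E19. Hand2, a basic helix-loop-helix gene, was at 85.1 and 14.3 CPM in the pup and 60.5 and 4.73 at E19. Hoxa5, an anterior HOX gene, held 27 UMIs in the stomach (60.5 CPM) and 1 UMI in the pup esophagus (4.30, 2.31 to 7.41), with 79.6 and 3.87 CPM at E19. Foxc1 was at 0 UMIs in the pup stomach and 46.2 CPM in the pup esophagus, after 1.66 and 25.8 CPM at E19. The first 4 of these were higher on the stomach side at both stages and Foxc1 on the esophagus side. Of the 13 stomach mesenchyme factors tested over birth 1 fell and none rose, beside 8.82% and 6.76% of all genes. The member that fell was Pitx1, a paired-type homeobox gene, from 293 to 71.7 CPM (-1.99). Of 9 Hox genes 1 fell, and of 8 factors known from the esophageal and respiratory mesenchyme 1 rose and 1 fell. The counts over birth of all these families are near the shares of all genes.

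The 78 cells were not uniform. Clustering them on their own gave 5 subgroups of 30, 16, 14, 10 and 8 cells, which are left unnamed and described by the genes that led them, ranked among genes with at least 100 UMIs in the subgroup. As the subgroups were made from these same genes, their differences are a description with no test. The 30 cells of subgroup 1 were led by Pi15, Ugdh, which makes the sugar precursor of hyaluronan, and Clec3b. Clec3b was at 1015 CPM in them and 104 in the other members, in 28 of the 30 cells. All 30 had a UMI of both Col1a1 and Dcn, their 7 fibroblast markers summed to 36510 CPM and their adult-type fibroblast genes to 9984, and none had mostly prenatal neighbours. Subgroup 2, of 16 cells, was led by Sparcl1, Dlk1 and H19, and had Cajal markers at 1823 CPM, against 23.9 in subgroup 1. Below 100 UMIs, Kit was at 1005 CPM in it and at most 37.0 in any other subgroup, and Etv1, a transcription factor of Cajal cells, at 646 CPM and at most 61.6. Only 5 of its cells had a Dcn UMI, and 8 had mostly prenatal neighbours. Its 7 fibroblast markers summed to 11497 CPM.

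Subgroup 3, of 14 cells, was led by the epithelial products Muc5b, Gkn1, Atp4a and Tff1, with columnar markers at 11833 CPM and fibroblast markers at 9504, and included the 3 cells of high mitochondrial share with at most 1 Col1a1 UMI. Single cells among these 3 held 128 of the subgroup's 150 Muc5b UMIs and 117 of its 133 Atp4a UMIs, and 2 of them held 195 each of its 474 Tff1 UMIs. Subgroup 4, of 10 cells, was led by Mt1, at 2488 CPM against 965 in the other members, by Zfp36 and by Mgp. Subgroup 5, of 8 cells, was led by the contractile genes Tagln and Acta2, at 1895 and 1881 CPM against 102 and 245, and by Postn. The cell of 21111 UMIs held 82 of its 141 Tagln and 93 of its 140 Acta2 UMIs, along with 30 of the 34 Mki67 UMIs of all 78 cells, and another cell held 94 of its 144 Postn UMIs. Acta2 was detected in 5 of the 8 cells. The subgroup had a median of 8935.5 UMIs per cell, 7 of its cells had mostly prenatal neighbours, and its mitosis genes summed to 3172 CPM. Barx1 had a UMI in 20, 13, 10, 5 and 8 cells of subgroups 1 to 5, so it was present in every subgroup. Clec3b, in contrast, had a UMI in 28, 1, 0, 6 and 2 cells, and Kit in 1, 8, 3, 0 and 1.

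**Figure D5:**
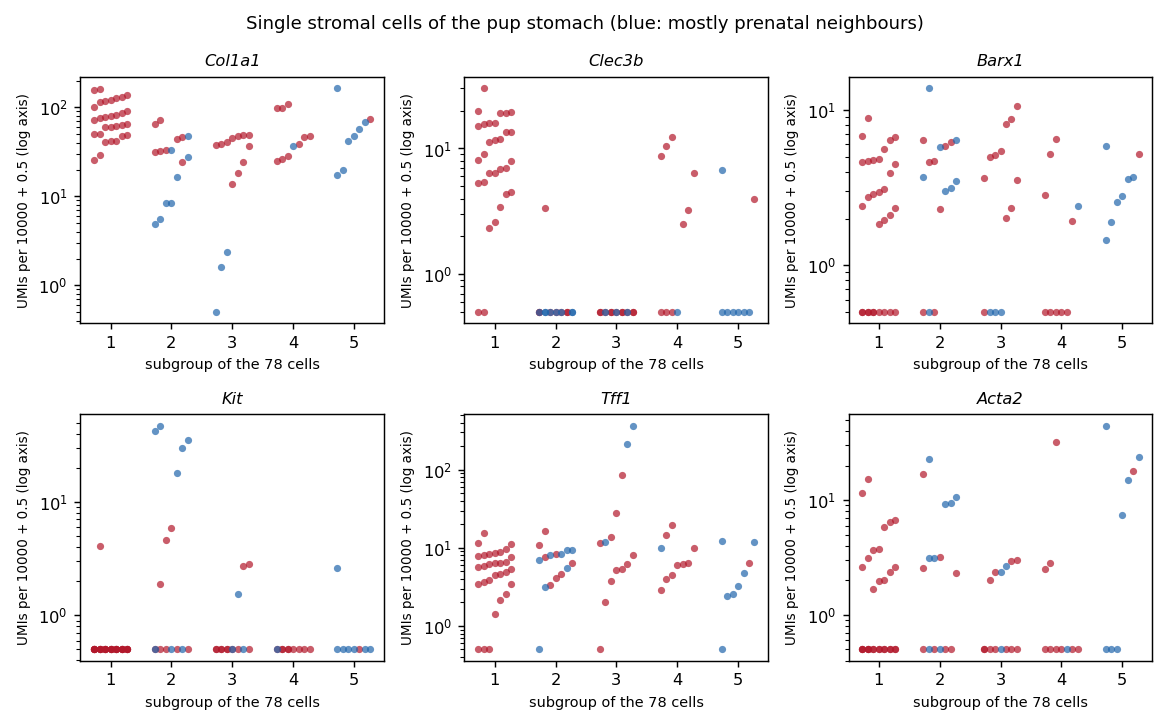
UMIs per 10000 UMIs of the cell, plus 0.5 (log axis), for 6 genes in each of the 78 stromal cells of the pup stomach, by subgroup, with the 19 cells of mostly prenatal neighbours in blue. Clec3b lies mainly in subgroups 1 and 4, Kit mainly in blue cells of subgroup 2, and the highest Tff1 values in 2 blue cells of subgroup 3.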

How the data were processed

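Gene expression and oligonucleotide tags were read in the same 7808 cells (tags and totals matched in 7808 of 7808), deposited as a matrix of counts, UMIs per gene and cell over 19550 genes, with a table of cell labels. The submitters' processing notes name Cell Ranger 6.1.1 and mm10. Cell filters, tag assignment, clusters and class names are the authors', and each cell's mitochondrial share is the percent in the deposited table. No further cell was removed as a doublet.

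UMIs were summed by region and stage over cells of the label Stromal. A gene was compared where 2 groups together held at least 100 UMIs, with 1 UMI added to each sum. Intervals for levels are exact Poisson, for shares Clopper-Pearson and for ratios exact conditional binomial, all at 95%. They cover counting error only. With 1 pool per group no p-value was computed. Shares of cells were also taken after thinning each cell to 2500 UMIs, leaving out shallower cells. Neighbours (15) were found in 30 components of 2000 variable genes over all stromal cells. The 78 cells alone were clustered (Leiden, 10 components, 10 neighbours, resolution 1, seed 1). The scripts were tested on simulated counts.

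The genes named are the 15 in each direction over birth and between organs, and the 8 in each direction between the organs' changes over birth, ranked by the interval bound nearest 0. To these come the 10 with the largest share of UMIs, 6 per subgroup and up to 6 per list by level. Atp4a, Chga, Foxc1, Gpx3, Hand2, Hist1h2ap, Hoxa5, Isl1, Mest, Nr3c1, Ntf3, Peg10, Pitx1 and Six2 were chosen after their values were seen. Genes past 2-fold over birth in opposite directions in the organs are named whatever their rank. The cells and the 45 gene lists (693 of 705 genes in the matrix) were chosen with earlier results of these data known. Gene positions are from GENCODE M21 on GRCm38. Counts were handled with pandas 2.3.3 and numpy 2.4.6 (Python 3.11.15), intervals with scipy 1.17.1, neighbours with scikit-learn 1.9.0, components and clusters with scanpy 1.11.5 and plots with matplotlib 3.10.9. Filters, scalings, thinning and the choice of cells were varied in 15 ways, and 4 more were added after seeing the data.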

Additional observations from a re-analysis of the deposited data

Results flagged for a closer look

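Of the genes tested in both organs, 5 were at least 2-fold higher over birth in the stomach stroma and 2-fold lower in the esophagus, and 7 the reverse. Each organ and stage is 1 pool, so these differences were not tested. Tmem100, a transmembrane gene downstream of BMP signaling, was at -2.36 in the stomach and 1.66 in the esophagus on the log2 scale, a difference of -4.02. For Ccl11, which encodes the eosinophil chemokine eotaxin, the values were -1.51 and 2.24, a difference of -3.75. For Enpp2, which encodes the lysophosphatidic acid-producing enzyme autotaxin, they were -2.09 and 1.04 (-3.13). The chaperone gene Hsph1 was at -1.74 and 1.25 (-2.99) and the endothelin receptor gene Ednra had a difference of -2.53. Bloc1s4 and Tnnt1 had differences of -2.39 and -2.32. In the other direction, Flrt3, an adhesion and guidance receptor gene, was at 1.33 and -1.94, a difference of 3.27. Npnt, which encodes the integrin ligand nephronectin, was at 1.57 and -1.70, a difference of 3.27, and 17 of its 22 UMIs in the pup stomach lay in 1 cell. The collagen gene Col5a3 was at 1.26 and -1.33 (2.59), Cd34 at 1.13 and -1.16 (2.28), and Sephs2 had a difference of 2.42.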

How the results depend on the processing

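The number of tested genes varies with the UMI minimum and the choice of cells. Over birth in the stomach, 914 of 10201 tested genes were higher in the pup with a minimum of 50 UMIs, and 129 of 2465 with 500. The count was 363 after thinning to 5000 UMIs per cell (which left 44 of the 78 cells and 5266 tested genes). It was 208 by the interval bound, 319 on log2(CPM + 10) and 5489 with no filter. Lower genes numbered 178, 102, 470 and 1123 with 500 UMIs, by the bound, on log2(CPM + 10) and with no filter, which also moved the median of all genes to 0.39. In the esophagus the same 4 settings gave 160, 302, 425 and 4519 higher and 198, 129, 409 and 1247 lower genes. Between organs in the pup, genes higher in the stomach numbered 100 (50 UMIs), 4 (500 UMIs), 12 (bound), 2548 (no filter), 92 (with the smooth muscle label), 25 (without cells of crossed neighbours), 16 (without cells with other classes' markers) and 24 (without the 1% of cells highest in each gene). Genes higher in the esophagus numbered 115, 9, 20, 1130 and 99 under the first 5 of these settings and 23 after thinning, which left 34 of the 151 esophageal cells and 523 tested genes. Between organs at E19 the stomach counts were 131 (500 UMIs), 237 (bound), 203 (log2(CPM + 10)) and 2457 (no filter), and the esophagus counts 127, 177 and 1195 without the bound. The 4 alternatives added after seeing the data left each count within 1.5 times. The genes behind a count changed more. Of the 38 genes higher in the pup stomach than in the pup esophagus, 16 were among the 27 called with the authors' cluster 9 alone. After thinning to 5000 UMIs, with 523 tested genes, 8 of the 38 were among the 27 called.

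The leading genes over birth and between organs gave 845 log2 ratios under an alternative, since genes that fell under 100 UMIs give none. Of these none reversed and 829 stayed past 2-fold. The exceptions were Muc5b over birth (0.43 to 0.80 in 5 settings), and between organs Postn (0.91), Ogn (0.49 and 0.29), H19 (0.85 to 1.00 in 5 settings), Myl9 (0.51), Pi15 (0.83) and Thbs2 (-0.78). Without that minimum, Muc5b between organs was at -0.66 without the cells of high mitochondrial share and Adamdec1 at -0.15 without the 19 cells of mostly prenatal neighbours. No paired analysis was possible because each group is 1 pool with no replicate number. The organ comparison in the pup had the fewest genes, as 1830 reached 100 UMIs against 10009 at E19. Its groups held 78 and 151 cells against 701 and 739, with fewer UMIs per cell. The parts of cell number and depth were not separated.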

Other observations

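The 27 cells of the pup stomach with the second stromal label are in no comparison above. Their 7 fibroblast markers summed to 7345 CPM, against 23430 in the 78 stromal cells, and Postn was at 0 UMIs in them.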
